A study of Mus musculus with 2 samples.

Results

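The genes described here are those of the mouse major histocompatibility complex (MHC) that carry an H2- name, together with 13 named genes of antigen processing: B2m, Tap1, Tap2, Tapbp, Erap1, Psmb8, Psmb9, Psmb10, Psme1, Psme2, Nlrc5, Ciita and Cd74. They were picked out by their gene names and numbered 58 of the 52636 genes in each deposited table. Of these, 45 had an H2- name and all 45 lay on chromosome 17. RNA-seq libraries labelled as retina had been made from C57BL/6 mice aged 8 weeks. There was 1 library of miR-29a knockout (KO) mice and 1 of wild-type (WT) mice, and each held the pooled retinas of 3 mice. The labels name no other allele, no agent and no sex, and do not say how the knockout was made.

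MHC class I molecules sit on the surface of nearly all nucleated cells and show them peptides made from the cell's own proteins. The proteasome cuts these peptides, the transporter of Tap1 and Tap2 carries them into the endoplasmic reticulum, and there they are trimmed and loaded onto a class I heavy chain bound to its light chain, beta-2-microglobulin. Class II molecules show peptides taken up from outside and belong mainly to dendritic cells, macrophages and B cells. Interferons are known to raise the expression of class I genes, of the Tap transporter and of the immunoproteasome, and the normal retina is known for its low MHC expression.

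The libraries held 24876925 counts for KO and 26805902 for WT. The tissue label went against the markers of retinal neurons in both libraries: 16 of 19 markers of photoreceptors and other retinal neurons were under 1 CPM (counts after each library is scaled to the same total) in each. The 5 listed markers of Mueller glia, a retinal glial cell, were mixed and summed to 216 CPM in KO and 183 CPM in WT. Glul (170 CPM in KO, 139 in WT), Rdh10 and Slc1a3 were detected. Aqp4 had 0 counts in both, and Rlbp1 was under 1 CPM in both. Markers of fibroblasts summed to 17421 CPM in KO and 15203 CPM in WT. The pools also differed in sex chromosome genes: Xist had 0 counts in KO and 4288 in WT, and the Y-linked gene Ddx3y had 376 in KO and 67 in WT. Sex and genotype therefore cannot be told apart in these libraries. Mir29a had 0 counts in both, and a precursor so short is seldom counted in such a library, so that value checks neither label. With 1 library per genotype there is no replicate check and no p-value, and each difference below compares the library labelled KO with the library labelled WT, not the genotypes.

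The promoters of the class I genes are shown first because they carry the motifs by which this family is known to be switched on together. Each run is taken from the RefSeq promoter table (GRCm38.p6, bases 250 before to 50 after a start) and printed 5' to 3' on the gene's strand. Capitals mark a core of the interferon-stimulated response element (TTTCNNTTC or TTTCNNTTTC, the site of interferon regulatory factors), CCAAT (the box bound by NF-Y), and TGACG (the core of the element bound by CREB), each on either strand. The last of these runs is the 250 bases before the Tap1 start, which hold the stretch between the Tap1 and Psmb9 starts. Each of the others was cut to begin shortly before its first interferon core, so the core's place near the front is set by the cut. Motifs outside a run are not printed: the H2-Q4 and B2m windows each hold 2 TGACG, and not both are shown.
H2-K1 (chr17:34000330-34000453, minus strand): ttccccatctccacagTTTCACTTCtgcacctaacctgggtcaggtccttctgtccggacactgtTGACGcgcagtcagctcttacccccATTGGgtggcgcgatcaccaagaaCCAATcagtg
H2-D1 (chr17:35262928-35263050, plus strand): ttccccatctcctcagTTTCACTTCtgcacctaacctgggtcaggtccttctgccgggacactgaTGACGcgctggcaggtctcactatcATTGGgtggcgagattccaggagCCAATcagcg
H2-Q4 (chr17:35379448-35379571, plus strand): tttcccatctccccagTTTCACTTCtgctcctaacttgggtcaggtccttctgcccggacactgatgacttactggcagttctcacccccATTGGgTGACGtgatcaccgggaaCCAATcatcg
H2-Q6 (chr17:35424682-35424804, plus strand): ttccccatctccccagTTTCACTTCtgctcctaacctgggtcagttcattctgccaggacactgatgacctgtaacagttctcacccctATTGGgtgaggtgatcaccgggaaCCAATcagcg
H2-Q7 (chr17:35439026-35439148, plus strand): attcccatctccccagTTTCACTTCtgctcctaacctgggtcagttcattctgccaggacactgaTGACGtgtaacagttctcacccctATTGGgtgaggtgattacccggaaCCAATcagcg
H2-T22 (chr17:36042755-36042949, minus strand): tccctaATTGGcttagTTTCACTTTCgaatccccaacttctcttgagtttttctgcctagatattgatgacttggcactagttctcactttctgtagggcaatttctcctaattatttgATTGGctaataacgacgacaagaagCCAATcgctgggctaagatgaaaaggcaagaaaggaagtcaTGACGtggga
B2m (chr2:122147532-122147643, plus strand): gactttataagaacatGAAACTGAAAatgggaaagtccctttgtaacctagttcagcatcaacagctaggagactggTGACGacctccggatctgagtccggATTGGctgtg
Tap1 (chr17:34187306-34187555, plus strand): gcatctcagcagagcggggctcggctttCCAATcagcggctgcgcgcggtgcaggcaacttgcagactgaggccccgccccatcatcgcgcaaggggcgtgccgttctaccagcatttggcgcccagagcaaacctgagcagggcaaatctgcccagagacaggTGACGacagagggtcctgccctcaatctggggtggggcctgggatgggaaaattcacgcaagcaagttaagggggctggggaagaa

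In the H2-K1, H2-D1, H2-Q4, H2-Q6 and H2-Q7 runs the interferon core stood first, followed by ATTGG, which is CCAAT on the other strand, and then by CCAAT itself. TGACG was found in the H2-Q7 window but not in that of H2-Q6, its near-copy. A promoter was listed for 21 of the 26 members with enough counts to be compared, and for none of H2-T10, H2-K2, H2-Q5, Nlrc5 and Tap2. The interferon core was found in 12 of the 21, against 2824 of all 27025 promoters and 8.45% of the 9281 promoters of genes past the same count minimum. CCAAT was found in 14 of the 21 (66.7%), against 37.9% of all promoters and 38.6% of those past the minimum. TGACG was found in 10 (47.6%), against 21.0% of all promoters and 32.7% of those past the minimum. All 3 motifs stood together in 7 of the 21, against 0.685% of all promoters and 0.873% of those past the minimum. Among class I heavy chain genes the interferon core was found in 9 of 10 and all 3 motifs in 6 of 10. These genes are copies of one another, so their promoters are not independent. A match describes the letters only. Tap1 and Psmb9 are read in opposite directions from starts 225 bases apart and share this stretch, in which CCAAT and TGACG but no interferon core were found. Psmb8, another gene that was lower in the library labelled KO, had none of the motifs in its window. By contrast B2m, Erap1 and Psme1, which changed by less than 2-fold, had the interferon core. Only the first listed start of each gene was searched. The Psmb8 window (chr17:34197945-34198244) lies inside the annotated gene, and the Tap1 run lies inside the annotated Psmb9 gene (chr17:34181987-34187764). Motifs at another start would therefore not be seen.

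Of the 58 members, 20 had no count in either library and 38 had at least 1. A ratio was taken for the 26 members whose higher library had at least 50 counts, after adding 0.5 to each CPM. A member was called where its log2 ratio reached 1 in size, a 2-fold change. The other 12 members with a count were too low, 6 of them with 10 or more counts in a library and 6 with fewer. Of the 26, 15 were lower in the library labelled KO and 0 were higher, and the other 11 were in neither class. Over all 12382 genes with that many counts, 2.82% were lower and 4.47% higher. The median log2 ratio of KO over WT was -1.23 over the 26 members and 0.06 over all genes. The same 15 members also had their whole 95% counting interval beyond 2-fold, as had 1.82% of all genes. H2-K2, H2-Q5, H2-Q6, H2-Q10, H2-T-ps and Nlrc5 reached the minimum only through the library labelled WT, in which they were higher. With 50 or more counts asked of each library, 10 of 20 members were lower, against 1.86% of 11602 genes. In RNA of whole tissue, fewer cells of a type and less RNA per cell cannot be told apart.

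The 15 lower members were 12 class I heavy chain genes, Tap1, Psmb8 and Psmb9. The transcripts of the 26 members were richer in G and C than most: their median GC content was 54.4%, against 49.9% over all genes. Across 12371 genes of these same 2 libraries the log2 ratio fell with GC content (Spearman correlation -0.44). After the median of genes of like GC content and length was subtracted, 16 of the 26 members were lower, with a median of -1.09.

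**Figure D1:**
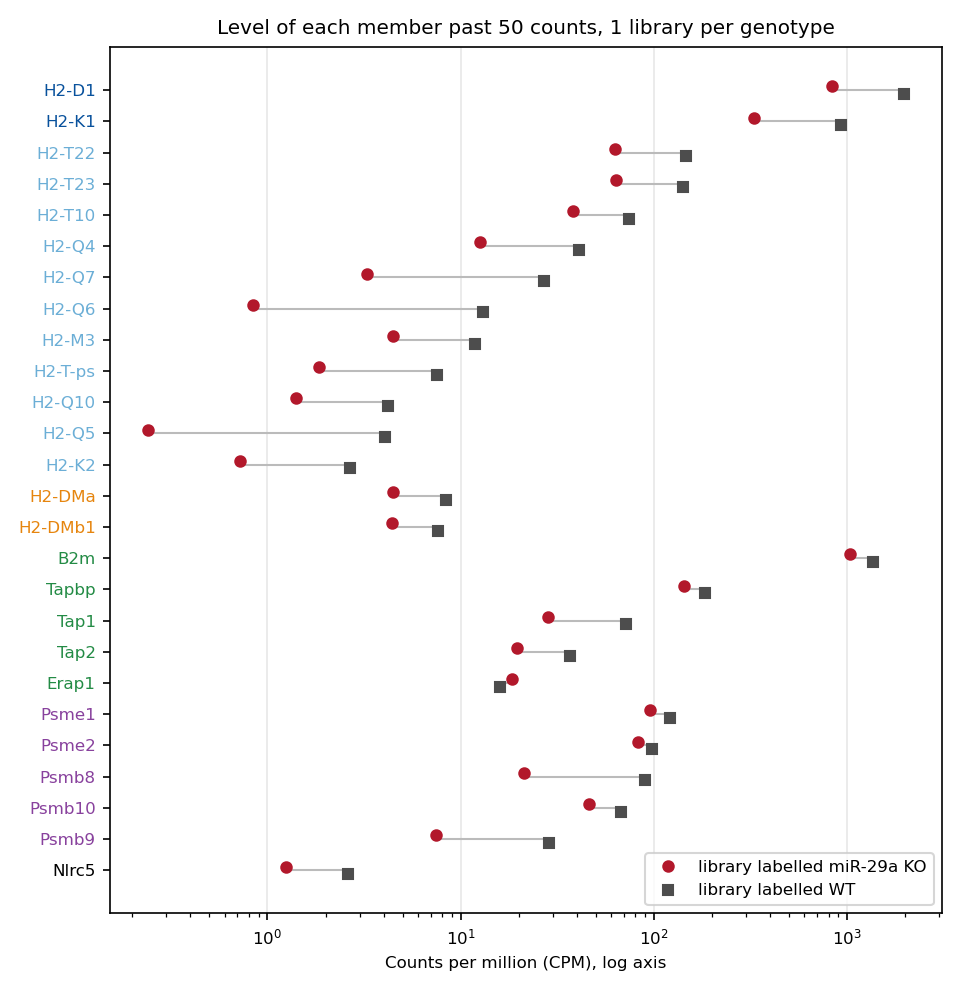
Level in CPM (log axis) of the 26 members whose higher library had at least 50 counts, with the library labelled KO as red circles and the library labelled WT as grey squares. Gene names are coloured by role, and within a role the genes run from high to low in WT. The red circle lies left of the grey square for 25 of the 26 genes, Erap1 being the exception.

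H2-K1 and H2-D1 encode the classical heavy chains of this strain, the molecules that present most peptides to killer T cells. H2-D1 (ENSMUSG00000073411, chr17:35262730-35267499, GRCm38) had 20693 counts in the library labelled KO, which is 832 CPM, and 52806 in the library labelled WT, which is 1969.9 CPM. It was 2.37-fold lower in KO (counting interval 2.33 to 2.41). H2-K1 (ENSMUSG00000061232, chr17:33996017-34000347) had 8173 counts in KO (329 CPM) and 24742 in WT (923 CPM). It was 2.81-fold lower in KO (2.74 to 2.88). These are among the most strongly expressed genes of both libraries. H2-D1 ranked 164 by count in KO and 44 in WT, and H2-K1 ranked 477 in KO and 149 in WT. Their log2 ratios were -1.24 and -1.49, and the counting intervals of the 2 genes did not overlap.

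All 32 class I heavy chain genes and pseudogenes together had 33623 counts in KO and 90287 in WT. Their sum was 2.49-fold lower in KO (2.46 to 2.52), at 1352 CPM in KO and 3368 CPM in WT. A sum over the family does not depend on how reads were divided within it. It does depend on reads exchanged with genes outside the family and on any shared reads left uncounted. H2-K1 and H2-D1 took 85.9% of these counts in KO (exact interval 85.5 to 86.2) and 85.9% in WT (85.7 to 86.1). Without them the sum was 4757 counts in KO and 12739 in WT, 2.49-fold lower in KO (2.40 to 2.57). Most of that sum came from genes of the T group, and the ratios of its single genes ranged widely.

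The nonclassical class I genes vary little between individuals and have narrower roles. Of the 30 genes and pseudogenes of this kind, 16 had a count, 11 could be compared, and 10 of the 11 were lower. H2-Q7, H2-Q6 and H2-Q5 had the lowest ratios of the 26 members. H2-Q7, which encodes the Qa-2 antigen, had 81 counts in KO (3.26 CPM) and 720 in WT (26.9 CPM). It was 8.25-fold lower in KO (6.55 to 10.51). Its neighbour H2-Q6 had 21 counts in KO and 348 in WT, 15.4-fold lower in KO (9.90 to 25.2). H2-Q5, annotated as a polymorphic pseudogene, had 6 counts in KO and 109 in WT, 16.9-fold lower in KO (7.50 to 46.9). These 3 genes stood well below H2-K1 and H2-D1 in ratio, with counting intervals that did not reach those of the classical genes. H2-Q4 had 312 counts in KO and 1097 in WT, 3.26-fold lower in KO (2.87 to 3.71). H2-Q10, known from the liver as a secreted heavy chain, had 35 counts in KO and 113 in WT, 3.0-fold lower in KO (2.03 to 4.51).

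Genes of the T group were closer to the classical pair. H2-T23 encodes Qa-1, which shows the leader peptides of other class I chains to natural killer cells. It had 1576 counts in KO (63.4 CPM) and 3808 in WT (142 CPM), 2.24-fold lower in KO (2.11 to 2.38). H2-T22, a ligand of some gamma-delta T cells, had 1563 counts in KO and 3913 in WT, 2.32-fold lower in KO (2.19 to 2.47). H2-T10, its near-copy and annotated here as a polymorphic pseudogene, had 950 counts in KO and 1985 in WT. Its log2 ratio was -0.95, just short of the 2-fold mark, with an interval of 1.79 to 2.10 times lower in KO. H2-M3, which presents peptides that begin with formyl-methionine, had 111 counts in KO and 316 in WT, 2.64-fold lower in KO (2.12 to 3.31). The pseudogene H2-T-ps had 46 counts in KO and 201 in WT, 4.06-fold lower in KO (2.93 to 5.72), and the pseudogene H2-K2 had 18 in KO and 72 in WT, 3.71-fold lower in KO (2.19 to 6.61). H2-Q1 had too few counts to be compared, with 6 in KO and 35 in WT. H2-T24 had 30 in KO and 21 in WT, the only class I gene with 10 or more counts that was higher in KO, and its interval held a ratio of 1 (0.852 to 2.83).

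**Figure D2:**
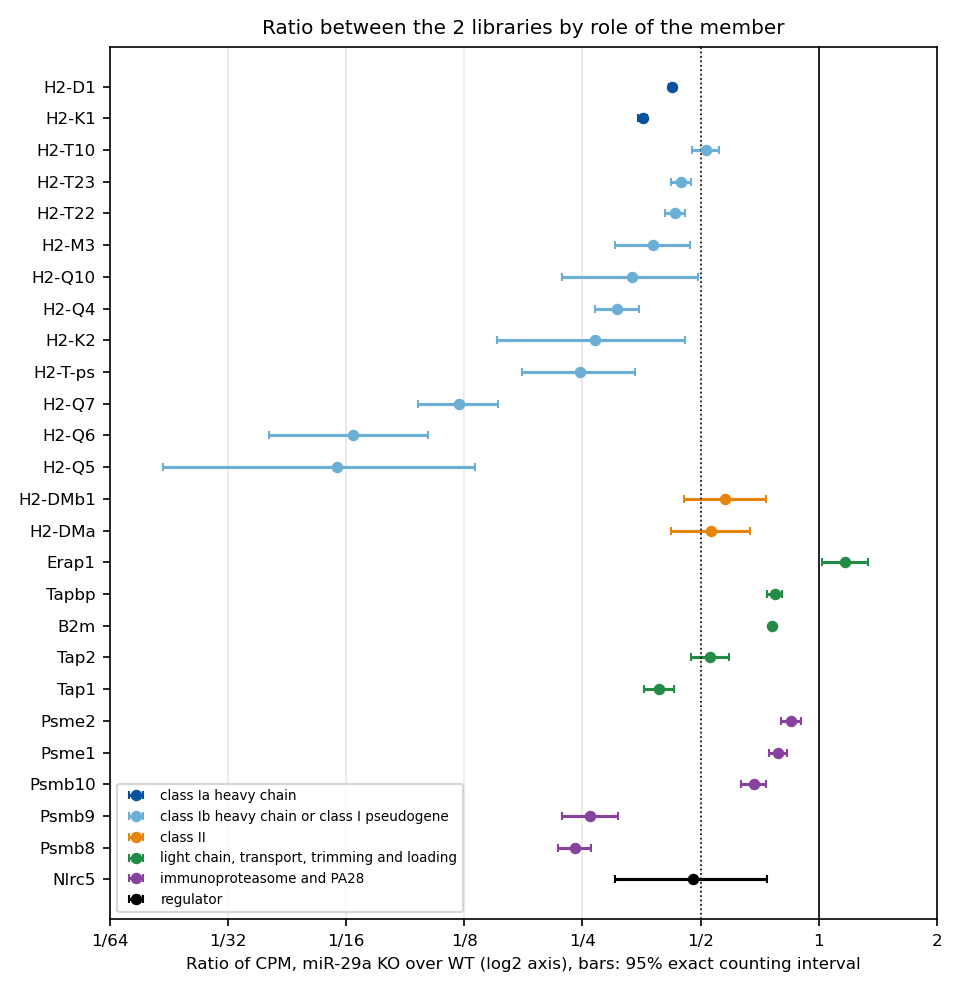
Ratio of CPM, library labelled KO over library labelled WT (log2 axis), for the 26 members ordered by role, with 95% exact counting intervals as bars. The solid line marks equal levels and the dotted line 2-fold lower. H2-Q5, H2-Q6 and H2-Q7 lie farthest to the left, B2m, Tapbp and the PA28 genes lie between the lines, and Erap1 lies to the right of 1.

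Reads of near-identical H2 genes can be assigned to the wrong member, and neither the read length nor the counter's treatment of such reads is known here. Coding sequences were 96.9% identical between H2-T10 and H2-T22, 95.4% between H2-Q6 and H2-Q7, and 91.5% between H2-D1 and H2-K1. Of the stretches of 100 bases in its annotated transcripts, H2-T22 shared the most among the 15 H2- members compared: 68.5% were found in no other gene. The share was 71.9% for H2-T10, 85.9% for H2-Q4, 86.0% for H2-Q5, 87.0% for H2-Q6 and 88.0% for H2-Q7. For H2-D1 it was 96.4% and for H2-K1 99.0%. The split of reads within each close pair is therefore uncertain. Genes outside the pairs share sequence too: A930015D03Rik holds 24.005% of the H2-T22 stretches, BC023719 22.5% of those of H2-T10, Gm11131 11.8% of those of H2-Q4, and H2-Q10 5.56% of those of H2-Q7. A pair's sum does not depend on the split within it. It does depend on reads exchanged with such genes and on any shared reads left uncounted. H2-T10 and H2-T22 together had 2513 counts in KO and 5898 in WT, 2.18-fold lower in KO (2.08 to 2.28). H2-Q6 and H2-Q7 together had 102 counts in KO and 1068 in WT, 9.72-fold lower in KO (7.92 to 12.0). Both pairs were thus lower as sums, and the Q pair was lower by more. Outside the H2 names, Psme2 (81.6%), Tapbp (85.2%) and Erap1 (90.0%) also shared sequence with other annotated genes, Erap1 with its neighbour Cast, and the kit does not mark strand.

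**Figure D3:**
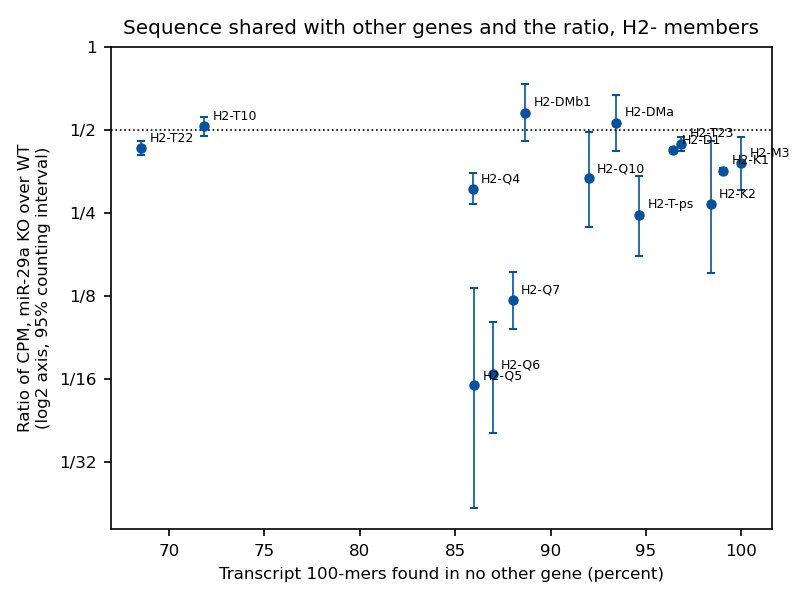
Ratio of CPM, library labelled KO over library labelled WT (log2 axis, bars are 95% counting intervals), against the percent of a gene's transcript 100-mers found in no other gene, for the 15 H2- members whose higher library had at least 50 counts. H2-T22 and H2-T10 share most sequence and lie near the dotted 2-fold line, and H2-Q5, H2-Q6 and H2-Q7 lie lowest at 86.0% to 88.0%.

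Class II genes were scarcely detected. H2-Aa, an alpha chain, had 0 counts in both libraries, which allows up to 0.121 CPM in KO and 0.112 CPM in WT. H2-Ab1, its partner beta chain, had 2 counts in KO and 23 in WT, and H2-Eb1 had 13 in KO and 27 in WT. Cd74, the invariant chain that escorts class II molecules, had 8 in KO and 3 in WT. Class II alpha and beta chains and Cd74 summed to 23 counts in KO and 53 in WT, 2.14-fold lower in KO with a wide interval (1.29 to 3.66). The genes of H2-DM, the factor that loads peptide onto class II, were the only members of this class that could be compared. H2-DMa had 111 counts in KO and 225 in WT, a log2 ratio of -0.84. H2-DMb1 had 110 in KO and 205 in WT, a log2 ratio of -0.73. Neither passed 2-fold. H2-DMb2, whose sequence is partly shared with H2-DMb1, had 8 counts in KO and 26 in WT.

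The light chain, transport and loading genes were mixed: of 5, Tap1 was lower and 4 were in neither class. B2m (chr2:122147686-122153083), the light chain of every class I molecule, had 25668 counts in KO (1032 CPM) and 36306 in WT (1354 CPM). It was 1.31-fold lower in KO (1.29 to 1.33) and was not called. Per length, in the authors' FPKM, B2m had the highest level of all members, at 1221 in KO and 1666 in WT, followed in both libraries by H2-D1 (328 in KO and 808 in WT) and H2-K1 (128 in KO and 374 in WT). The summed FPKM of the heavy chains was 522 in KO and 1356 in WT, which is 42.7% of the B2m level in KO and 81.4% in WT. These shares carry no correction for GC content, which was 41.2% for B2m, 55.9% for H2-D1 and 54.3% for H2-K1. With the GC and length correction the log2 ratio of B2m moved from -0.39 to -0.66. That of H2-D1 moved from -1.24 to -1.03, and that of H2-K1 from -1.49 to -1.34, so light and heavy chains lay closer.

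Tap1 and Tap2 together form the peptide transporter. Tap1 had 700 counts in KO (28.1 CPM) and 1927 in WT (71.9 CPM), 2.55-fold lower in KO (2.34 to 2.79). Tap2 had 487 in KO and 991 in WT, a log2 ratio of -0.90, 1.69 to 2.11 times lower in KO. Tapbp encodes tapasin, which holds class I molecules to the transporter. It had 3537 counts in KO and 4935 in WT, a log2 ratio of -0.37. Erap1, the aminopeptidase that trims peptides, had 461 in KO and 426 in WT, a log2 ratio of 0.22 and the only one of the 26 above 0. Its sign was not stable: with the correction for GC content and length it was -0.10.

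The immunoproteasome replaces 3 catalytic subunits of the standard proteasome with interferon-inducible ones. Psmb8 (chr17:34197721-34201454) had 531 counts in KO (21.3 CPM) and 2396 in WT (89.4 CPM), 4.19-fold lower in KO (3.81 to 4.61). Psmb9 (chr17:34181987-34187764) had 185 in KO (7.44 CPM) and 763 in WT (28.5 CPM), 3.83-fold lower in KO (3.26 to 4.52). Psmb10 lies on chromosome 8, outside the MHC. It had 1150 counts in KO and 1815 in WT, a log2 ratio of -0.55. Psme1 and Psme2 encode the PA28 activator that caps the proteasome. Psme1 had 2373 counts in KO and 3238 in WT (log2 ratio -0.34), and Psme2 had 2052 in KO and 2606 in WT (log2 ratio -0.24).

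Set against the standard subunit that each replaces, in FPKM, Psmb8 stood at 2.50% of Psmb5 in KO and 11.6% in WT. Psmb9 stood at 1.23% of Psmb6 in KO and 3.53% in WT, and Psmb10 at 81.8% of Psmb7 in KO and 146% in WT. All 3 ratios were lower in KO. Their size depends on the length used. Per length of the longest transcript, Psmb8 over Psmb5 was 0.037 in KO and 0.172 in WT. On that scale Psmb9 over Psmb6 was 0.0081 in KO and 0.0231 in WT, and Psmb10 over Psmb7 was 0.886 in KO and 1.58 in WT. None of these ratios carries a correction for GC content. The standard subunits themselves did not pass 2-fold. Psmb5 had 6770 counts in KO and 6567 in WT, Psmb6 had 7679 in KO and 11060 in WT, and Psmb7 had 2821 in KO and 2500 in WT. Of 12 standard subunits and other activators, 0 were called in either direction, with a median log2 ratio of 0.29. Among all genes past the count minimum 2.82% were lower and 4.47% higher, so a count of 0 among 12 says little. Psma3 (log2 ratio 0.89), the activator Psme4 (0.86) and the assembly factor Pomp (0.67) lay farthest from 0. The most counted were Psmb4 (-0.17) and Psmb6 (-0.42).

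**Figure D4:**
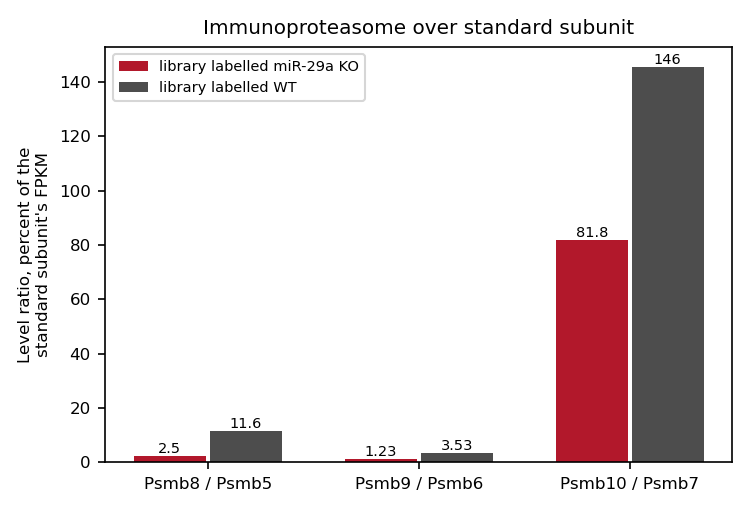
Level of each interferon-inducible proteasome subunit as a percent of the standard subunit it replaces, from the authors' FPKM, in the library labelled KO (red) and the library labelled WT (grey), 1 library each. Psmb8 over Psmb5 was 2.50 in KO and 11.6 in WT, Psmb9 over Psmb6 was 1.23 in KO and 3.53 in WT, and Psmb10 over Psmb7 was 81.8 in KO and 146 in WT.

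The chaperones and folding enzymes that class I shares with other glycoproteins were not lower as a group. Of 7, 0 were called, with a median log2 ratio of 0.25. Among all genes past the count minimum 2.82% were lower and 4.47% higher, so a count of 0 among 7 says little. Canx, the calnexin gene, had a log2 ratio of 0.41, Pdia3 0.37 and Uggt1 0.36. The most counted were Calr, the calreticulin gene, with -0.30, and Hspa5 with 0.25. For class II peptide generation 6 of 8 listed genes were in the table, and 2 of the 6 were higher, against 4.47% of all genes. Ctss, the protease that trims the invariant chain, had 1000 counts in KO and 223 in WT, 4.83-fold higher in KO (4.18 to 5.61). Ifi30, a lysosomal thiol reductase, had 1492 in KO and 694 in WT, 2.32-fold higher in KO (2.12 to 2.54). Ctsb (log2 ratio 0.58) and Ctsd (0.20) were the most counted.

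Of 12 class I-like genes outside the H2 names, 9 could be compared. Of these, 1 was higher and 0 were lower, against 4.47% higher and 2.82% lower among all genes. Of the 9, 4 had a log2 ratio above 0 and 5 below, and the median was -0.33. The 1 higher gene, Ulbp1, reached the minimum only through the library labelled KO, and Raet1d only through the library labelled WT. Ulbp1, an NKG2D ligand, had 101 counts in KO and 43 in WT, 2.53-fold higher in KO (1.75 to 3.71). Raet1d, another ligand of that receptor, had 26 in KO and 60 in WT (log2 ratio -0.83), and Hfe, which regulates iron uptake, had 355 in KO and 607 in WT (-0.65). Fcgrt, the heavy chain of the neonatal Fc receptor and a partner of B2m, had 8518 in KO and 13229 in WT (-0.53). Procr had a log2 ratio of 0.08.

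The transactivators that drive these genes were low in both libraries. Nlrc5, which acts on class I promoters, had 31 counts in KO (1.25 CPM) and 70 in WT (2.61 CPM). Its ratio without the added 0.5 CPM was 2.10 times lower in KO, with an interval from 1.35 to 3.31, and with it the log2 ratio was -0.83, so it was not called. Ciita, the corresponding factor for class II, had 4 counts in KO and 16 in WT.

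Of 24 genes of MHC transcription and interferon signalling, 1 was higher (4.17%) and 2 were lower (8.33%), with a median log2 ratio of -0.07. Among all genes past the count minimum 4.47% were higher and 2.82% lower. Irf7, a transcription factor that is itself induced by interferon, had 1273 counts in KO and 9018 in WT, 6.57-fold lower in KO (6.20 to 6.98). Stat2, a transcription factor activated by interferon receptors, had 762 in KO and 1932 in WT, 2.35-fold lower in KO (2.16 to 2.56). Irf8, a factor of myeloid cells, had 130 in KO and 60 in WT, 2.33-fold higher in KO (1.71 to 3.23). Jak1, the most counted kinase of the list, had a log2 ratio of 0.42. The 9 interferon genes listed had 0 counts in both libraries.

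Other interferon-stimulated genes were lower in the same library as the MHC genes. Of 29, 24 could be compared, 15 were lower, 0 were higher and all 24 had a log2 ratio below 0. Their median was -1.50. Of the 24, 6 reached the minimum only through the library labelled WT, in which they were higher, Cxcl10 and Oas3 among them. Over all genes with that many counts, 2.82% were lower. Isg15 had 408 counts in KO and 3952 in WT, 8.99-fold lower in KO (8.12 to 9.98). Cxcl10, a chemokine, had 38 in KO and 415 in WT, 10.14-fold lower in KO (7.26 to 14.5), and Oas3 had 30 in KO and 254 in WT, 7.86-fold lower in KO (5.37 to 11.9). Bst2, the most counted, had 3637 in KO and 15955 in WT, 4.07-fold lower in KO (3.93 to 4.22).

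The MHC region was taken as the stretch from the first to the last H2- gene (chr17:33974659-37483552), so the 12 lower H2- genes lie in it by construction. Tap1, Psmb8 and Psmb9, the other 3 lower members, also lie in it, as does Tap2. Tapbp lies on the same chromosome just outside this stretch (chr17:33915899-33929292). Of the members in the region 19 could be compared and 15 of them were lower. The region holds many genes with other functions. Of 67 that could be compared, 1 was lower (1.49%) and 0 were higher, with a median log2 ratio of -0.21. Among all genes past the count minimum 2.82% were lower and 4.47% higher, so the count for these 67 was near that share. The 1 lower gene was the complement gene C2, with 169 counts in KO and 515 in WT (log2 ratio -1.43). The lower members stood mostly in groups along the region, with runs of other genes between the groups.

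**Figure D5:**
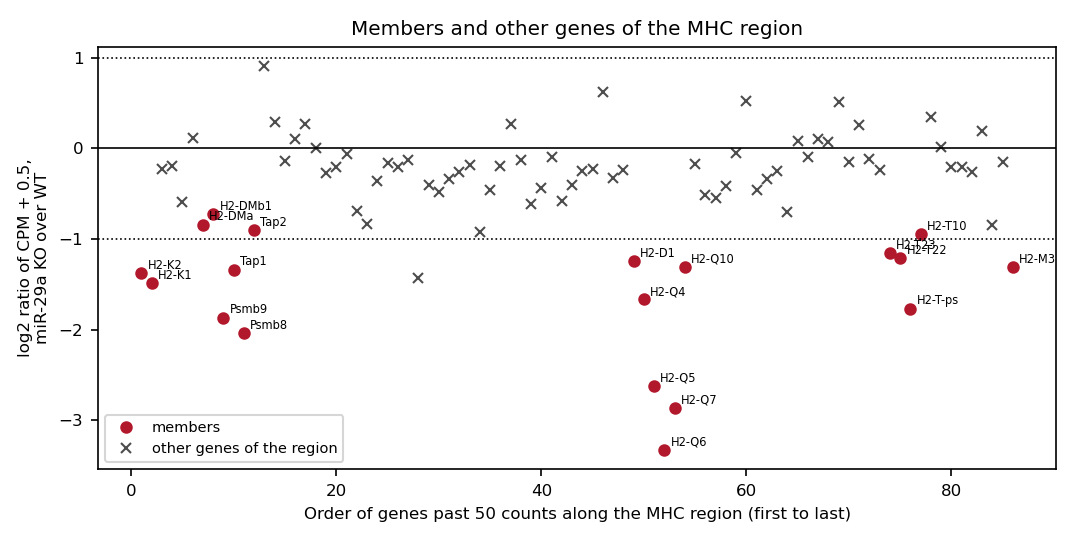
Log2 ratio, library labelled KO over library labelled WT after adding 0.5 to each CPM, of the genes of the MHC region whose higher library had at least 50 counts, in their order along chromosome 17. Red circles are the 19 members and grey crosses the 67 other genes, and dotted lines mark 2-fold. Of the circles, 15 lie at or below -1, and of the crosses 1 does.

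The microRNA that gives the KO its name was searched for among the members as a direct match. Mature miR-29a is printed with its seed in capitals, and the only member past the count minimum with a match, Erap1, is printed with the heptamer TGGTGCT in capitals.
mmu-miR-29a-3p (RefSeq, chr6:31062673-31062694, minus strand): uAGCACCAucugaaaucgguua
Erap1, site in the 3' UTR (chromosome 13): atatcaacataTGGTGCTgtaatatacta

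The heptamer was found in the longest annotated 3' UTR of 2 of the 48 members searched, Erap1 and Ciita. Among members past the minimum it was found in 1 of 23, or 4.35%, against 1860 of 11591 protein-coding genes past the minimum. Whether miR-29a acts on any member was not tested.

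Immune cells carry much of the MHC expression of a tissue. Among their markers, those of macrophages and monocytes were mostly higher in the library labelled KO. Few or none of the dendritic cell, B cell, and T and NK cell markers had enough counts to be compared. Of 11 macrophage and monocyte markers that could be compared, 10 were higher in the library labelled KO, against 4.47% of all genes. Of these 11, 2 reached the minimum only through that library. The whole list of 12 summed to 1397 CPM in KO and 455 CPM in WT. Lyz2 had 21052 counts in KO and 5827 in WT, and C1qa had 3232 in KO and 903 in WT, whereas Cd14 had 2828 in KO and 3412 in WT. The sum of 8 dendritic cell markers was 13.4 CPM in KO and 8.95 CPM in WT. The sum of 5 B cell markers was 0.884 CPM in KO and 0.970 CPM in WT. The sum of 8 T and NK cell markers was 8.96 CPM in KO and 1.98 CPM in WT, nearly all of it Cd4, with Cd3e at 0 in both. Of 7 endothelial markers that could be compared 4 were higher, against 4.47% of all genes. However, 3 of the 7 reached the minimum only through the library labelled KO. The list of 8 summed to 57.4 CPM in KO and 41.3 CPM in WT. Of 8 fibroblast markers 0 were called, against 4.47% higher and 2.82% lower among all genes. The part that these cells have in the members' values was not tested.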

How the data were processed

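RNA was measured in 1 library labelled miR-29a KO and 1 labelled WT. Per the labels' protocols, a Ribo-Zero kit took out ribosomal RNA before library construction (NEBNext Ultra, unstranded). The submitters' processing notes name HISAT2 and the build mm10 (GRCm38). Not given in the sources used here were the counter, the strand setting and the read length. The deposited tables hold a whole-number count per gene, per the file headers, used as deposited. The authors' FPKM values, per the file headers, were used for levels between genes and as an alternative.

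CPM was the count over the library total. Log2 ratios of KO over WT were taken after adding 0.5 to each CPM, for genes whose higher library had at least 50 counts; 4 genes were left out because a count was worth a different FPKM in each table (tolerance 1%). Folds carry no addition and have 95% exact (Clopper-Pearson) intervals. A count of 0 allows up to 3 counts. Intervals and floors cover counting error only. Members, roles and lists were chosen with earlier results of these data known. Every member past the minimum is named, members under it where 1 library had 10 or more counts, of each pathway list the 3 with the largest ratio and the 2 most counted, and of a cell type list its sum and at most its 3 most counted genes. Other genes named (H2-Aa, Cd74, C2, Xist, Ddx3y) and the MHC interval were chosen after values were seen, as was the longer interferon core. Positions, transcripts and 3' UTRs came from GENCODE (GRCm38), in which 52403 of 52636 genes were found; promoters and miR-29a came from RefSeq (GRCm38.p6). Identity was taken between coding sequences by global alignment in place of the planned proteins. Alternatives covered scaling (TMM of edgeR, median of ratios), composition, pseudocount, minimum, threshold and the stretch length. The steps were tested on simulated data. Python 3.11.15, pandas 2.3.3, scipy 1.17.1, Biopython 1.88, R 4.3.3 and edgeR 4.0.16 were used.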

Additional observations from a re-analysis of the deposited data

How the results depend on the processing

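No paired analysis was possible because there was 1 library per genotype. The count of lower members (15) lay between 12 and 17 under the scalings, the GC and length correction, FPKM, either other pseudocount (0.1 or 2 CPM), 200 counts as the minimum and any count, and was 10 with 50 counts in each library, 20 at 1.5-fold, 4 at 4-fold and 3 without H2- names, which leaves 11 genes. Of the 15, 13 were lower under each of 7 scalings, corrections and pseudocounts; H2-K2 (-0.78 at 2 CPM) and H2-Q10 (-0.88 with FPKM, -0.87 at 2 CPM) were not, and a larger pseudocount by its construction pulls low genes to 0. Erap1 alone changed sign (-0.10 with the GC and length correction). The members' median log2 ratio was -1.01 at 2 CPM, -1.05 with 50 counts in each library, -0.87 with any count and -0.55 without H2- names. The log2 ratio of summed class I counts, -1.32, was -1.35 with TMM, -1.38 with median of ratios, -1.14 with the GC and length correction and -1.38 with FPKM. Over all genes, 322 were higher with FPKM; 214 were lower and 351 higher at 2 CPM; 213 and 340 at a minimum of 200; 216 and 355 with 50 in each library; 1100 and 1645 at 1.5-fold; 58 and 103 at 4-fold. The median share of member transcript stretches found in no other gene was 94.0%, 87.7% at 50 bases and 97.6% at 150. Each library is a pool of 3 mice of unknown sex, the tissue label goes against the retinal neuron markers, and counting intervals hold no spread between animals. Members with few counts, such as H2-Q5 with 6 in KO, have wide intervals.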
